A study of Homo sapiens with 16 samples.

Results

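The 9 genes described here encode the machinery that shows peptides on MHC class I molecules: the heavy chains HLA-B, HLA-C and HLA-E, the light chain B2M, the peptide transporter subunits TAP1 and TAP2, the loading chaperone TAPBP (tapasin), and the immunoproteasome subunits PSMB8 and PSMB9. They were taken by gene symbol, each symbol had 1 row, and they are 9 of 39249 rows. All 9 were among the 21633 genes left by the filter on low counts. The cells were A673, an established Ewing sarcoma line that carries the EWSR1-FLI1 fusion, and 3 derivatives of it with a knockout of MRPL45, CYC1 or UQCRFS1, called MRPL45-KO, CYC1-KO and UQCRFS1-KO below. MRPL45 belongs to the mitochondrial ribosome, while CYC1 (cytochrome c1) and UQCRFS1 (the Rieske protein) belong to complex III of the respiratory chain. Each line received 500 nM SP-2509, a small molecule developed as an inhibitor of the histone demethylase LSD1, or 0.1% of the solvent DMSO, for 48 h. That gave 8 groups of 2 libraries, 16 in all, named below by line, treatment and replicate number. All 4 lines share the A673 background, and only the knockouts carry an engineered allele. The series title calls the knockouts monoclonal, so the effect of a knocked-out gene and the traits of the 1 clone that carries it cannot be told apart.

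Class I molecules report the proteins a cell is making to the immune system. Proteasomes cut cytosolic proteins into peptides, and in cells exposed to interferon gamma the subunits PSMB8, PSMB9 and PSMB10 replace PSMB5, PSMB6 and PSMB7 of the standard core. TAP1 and TAP2 form a transporter that carries peptides into the endoplasmic reticulum, where tapasin holds an empty heavy chain with B2M beside the transporter until a peptide is bound. HLA-B and HLA-C present peptides to cytotoxic T cells and are also ligands of NK cell receptors. HLA-E mostly presents leader peptides of other heavy chains and is the ligand of the NK receptor CD94/NKG2A. The genes are transcribed under the control of NLRC5 with the RFX complex, of interferon regulatory factors (IRF), and of NF-kappaB. Ewing sarcoma cells are known for low class I levels at their surface.

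Promoter windows from RefSeq (GRCh38.p14), 250 bases before to 50 bases after a gene start, were found for 8 of the 9 genes, and 2 of these had 2 windows. HLA-E had no entry. The windows of HLA-B (chr6:31357130-31357429, minus strand) and HLA-C (chr6:31272043-31272342, minus strand) are shown because these heavy chains behaved differently between the lines, and those of TAP1 (chr6:32853655-32853954, minus strand) and PSMB9 (chr6:32853942-32854241, plus strand) because the genes lie head to head. Capitals mark matches on either strand to the IRF element of class I genes (GAA, any 2 bases, GAAAC), the general IRF element (GAAA, any 2 bases, GAAA) and the kappaB element of class I enhancer A (GGGGA, any base, TCCCC).
HLA-B: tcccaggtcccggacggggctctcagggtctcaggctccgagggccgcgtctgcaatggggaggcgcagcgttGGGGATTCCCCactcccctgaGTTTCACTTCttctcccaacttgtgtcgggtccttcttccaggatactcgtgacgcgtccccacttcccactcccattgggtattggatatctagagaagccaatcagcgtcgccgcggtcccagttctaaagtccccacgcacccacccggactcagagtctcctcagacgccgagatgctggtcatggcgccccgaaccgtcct
HLA-C: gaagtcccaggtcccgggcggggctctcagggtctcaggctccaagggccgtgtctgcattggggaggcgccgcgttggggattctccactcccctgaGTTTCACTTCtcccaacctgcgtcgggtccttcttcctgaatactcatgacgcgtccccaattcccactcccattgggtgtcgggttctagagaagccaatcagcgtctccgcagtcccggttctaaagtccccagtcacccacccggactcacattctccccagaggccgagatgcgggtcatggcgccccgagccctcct
TAP1: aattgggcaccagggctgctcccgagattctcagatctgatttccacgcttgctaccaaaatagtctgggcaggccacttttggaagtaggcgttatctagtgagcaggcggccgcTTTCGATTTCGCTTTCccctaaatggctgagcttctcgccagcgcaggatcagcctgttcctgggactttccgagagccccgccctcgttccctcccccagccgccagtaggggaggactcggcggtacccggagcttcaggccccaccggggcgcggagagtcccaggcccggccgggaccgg
PSMB9: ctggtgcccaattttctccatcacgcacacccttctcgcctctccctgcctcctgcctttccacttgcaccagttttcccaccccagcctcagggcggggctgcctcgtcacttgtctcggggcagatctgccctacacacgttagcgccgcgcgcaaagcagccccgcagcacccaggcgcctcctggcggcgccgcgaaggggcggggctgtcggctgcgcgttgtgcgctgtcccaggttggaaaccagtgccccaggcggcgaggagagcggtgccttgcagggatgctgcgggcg
These 3 patterns were chosen with the sequences in view. The shorter patterns TGACG and CCAAT, held by 24.6% and 34.6% of promoter windows, were also searched and are not marked. Both were found in the HLA-B, HLA-C and PSMB9 windows, and CCAAT in the TAP1 window shown. Of 35116 promoter windows of the same length, 1.46% held the class I IRF element, 3.57% the general one and 0.074% the enhancer A element. The HLA-B and HLA-C windows were identical in 269 of 304 aligned columns (88.5%). Each held the class I IRF element, which begins 156 bases before the HLA-B start and 152 bases before the HLA-C start. The kappaB letters of enhancer A, 177 bases before the HLA-B start, are changed in HLA-C by C9T, counted from 1 at the 5′ end of the site with the base of HLA-B written first.
HLA-B site: GGGGATTCCCC
HLA-C site: GGGGATTCTCC
The TAP1 window held a pair of overlapping general IRF elements that begin 134 and 128 bases before its start. TAP1 has 2 windows. The gene start of the one shown lay 488 bases from that of PSMB9 on the opposite strand, and these windows shared 13 bases, while the other start lay 1431 bases from that of PSMB9 and its window shared 0 bases and held none of the 3 patterns. The PSMB9 window held none of these 3 patterns. The general IRF element was also found in the windows of B2M, TAP2 and TAPBP and in 1 of the 2 windows of PSMB8. A match is a run of letters and says nothing about binding in these cells.

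Total counts per library ranged from 24873597 to 56171036. CYC1 was lower in its own knockout line than in A673 (log2 fold change -1.97 ± 0.07 SE) and UQCRFS1 in its own (-0.74 ± 0.06), both with DMSO, while the label of MRPL45-KO cells was not checked because no row of that gene was used here. All 8 Ewing sarcoma markers looked up had counts in every group, with sums of 2782 to 4165 CPM per library. The 7 leukocyte markers summed to 0.57 to 3.72 CPM and the 3 endothelial markers to 0.32 to 3.88 CPM. The leukocyte sum was 1.87 to 3.72 CPM in MRPL45-KO and CYC1-KO cells and 0.57 to 0.99 CPM in A673 and UQCRFS1-KO cells, mostly from ITGAM, while PTPRC, which marks leukocytes in general, did not exceed 0.40 CPM. The endothelial sum was highest in MRPL45-KO cells (2.31 to 3.88 CPM) and was 0.54 to 0.56 CPM with DMSO and 1.11 to 1.26 CPM with SP-2509 in A673. Their part in the results below was not tested. The labels do not say that replicates were separate cultures, and the p-values therefore cover just the spread from library to library, which may be technical. In bulk RNA, fewer cells with a transcript and less transcript per cell cannot be told apart. Near-identical copies and overlapping genes make some of the counts uncertain: of all 50-base windows of the annotated transcripts, another gene shared 2.72% for HLA-B, 5.38% for HLA-C, 4.34% for HLA-E, 4.17% for TAPBP and 31.3% for TAP2, the last through a readthrough gene. For PSMB9 the share was 2.89%, with the RNA PSMB8-AS1, which it overlaps on the same strand. TAP1 and PSMB8 overlap PSMB9 and that RNA on opposite strands. Whether counting used the strand is not given in the sources used here.

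Read per length, the 9 genes spanned a wide range in untreated A673. With the CPM divided by the length of the principal transcript in kilobases, B2M stood at 364 CPM per kb in the DMSO group, TAPBP at 44.5, HLA-C at 32.1 and HLA-E at 13.3. TAP2 stood at 4.36, PSMB8 at 1.59, HLA-B at 0.80, TAP1 at 0.73 and PSMB9 at 0.12 CPM per kb. The standard catalytic subunits were far above the immunoproteasome ones, with PSMB5 at 95.1, PSMB6 at 171 and PSMB7 at 225 CPM per kb. So, as counted on the build hg19, A673 had abundant light chain and chaperone transcripts, low transporter transcripts and hardly any HLA-B or PSMB9 transcript. Whether reads from HLA alleles unlike that build were lost was not tested, so levels of different HLA genes compare only as counted.

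**Figure D1:**
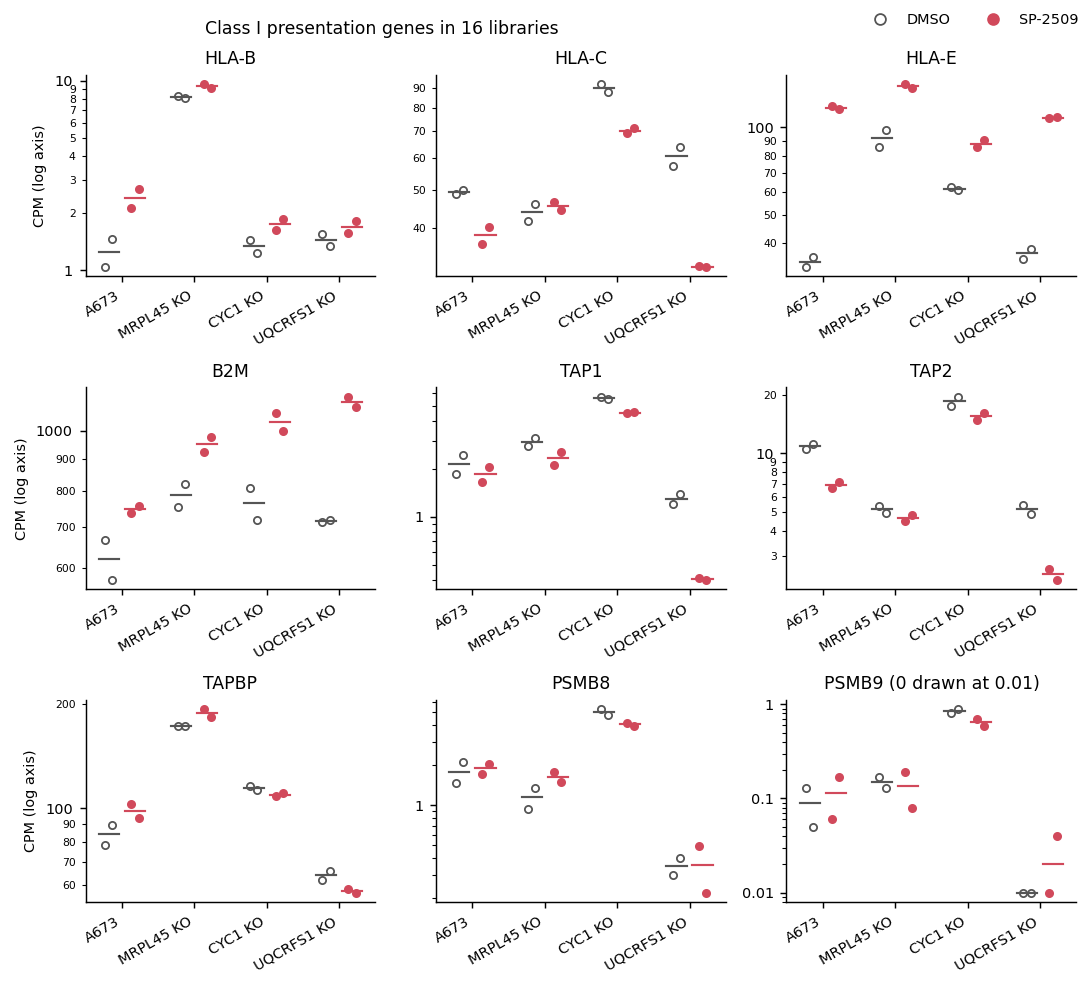
Levels of the 9 class I genes in the 16 libraries, as CPM on a log axis that differs between panels. Open grey points are DMSO libraries, filled red points SP-2509 libraries, and lines are group means of 2 libraries. HLA-B is highest in MRPL45-KO cells (8.09 to 9.65 CPM), while TAP1, TAP2, PSMB8 and PSMB9 are highest in CYC1-KO cells and lowest or nearly lowest in UQCRFS1-KO cells.

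The next comparison asked what SP-2509 did to the class I genes within each line. HLA-E and B2M rose in all 4 lines, HLA-C and TAP2 fell in 3 of the 4, and PSMB8 and PSMB9 passed the test in none. Of the 9 genes, 4 rose and 2 fell in A673, 2 rose and none fell in MRPL45-KO cells, 2 rose and 2 fell in CYC1-KO cells, and 2 rose and 3 fell in UQCRFS1-KO cells. Over all 21633 genes tested, SP-2509 changed 58% in A673 (31.6% higher, 26.4% lower), 18.5% in MRPL45-KO cells (10.4% and 8.09%), 33.4% in CYC1-KO cells (18.7% and 14.7%) and 54.7% in UQCRFS1-KO cells (29.6% and 25.1%). These counts use the edgeR quasi-likelihood test with Benjamini-Hochberg adjustment over all genes tested, called "edgeR adjusted p" below, and a threshold of 0.05. The number of class I genes called is near these backgrounds and is no result about them, while the genes differed among themselves in direction. The median log2 fold change over the 9 genes was 0.23, 0.13, -0.26 and 0.02 in these lines, against -0.03, -0.01, 0.02 and 0 over all genes tested.

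HLA-E gave the largest rise of the 9 genes in A673. Its level was 33.2 and 36.01 CPM with DMSO and 118 and 116 CPM with SP-2509. The libraries did not overlap, and the log2 fold change was 1.76 ± 0.07 (edgeR adjusted p 9.74e-17). In UQCRFS1-KO cells HLA-E went from 35.5 and 38.4 to 108 and 108.3 CPM, which is 1.55 ± 0.07 (edgeR adjusted p 1.01e-15) and again with no overlap. The other knockout lines started higher and rose less. In MRPL45-KO cells it went from 85.6 and 98.0 to 141 and 137 CPM (0.60 ± 0.06, edgeR adjusted p 4.42e-07). In CYC1-KO cells it went from 62.2 and 60.8 to 85.6 and 90.6 CPM (0.52 ± 0.07, edgeR adjusted p 8.8e-07). In each line both SP-2509 libraries were above both DMSO libraries.

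HLA-C moved the other way in 3 lines. In A673 it stood at 48.7 and 49.95 CPM with DMSO and at 36.6 and 40.4 CPM with SP-2509 (-0.36 ± 0.07, edgeR adjusted p 6.39e-05). CYC1-KO cells had the highest HLA-C of all lines, 92.0 and 87.9 CPM with DMSO, and fell to 69.2 and 71.4 CPM (-0.36 ± 0.07, edgeR adjusted p 0.000115). The fall was largest in UQCRFS1-KO cells, from 57.3 and 63.9 to 32.2 and 32.0 CPM (-0.92 ± 0.07, edgeR adjusted p 2.1e-11). The groups did not overlap in any of these 3 lines. In MRPL45-KO cells HLA-C stood at 41.8 and 46.0 CPM with DMSO and at 46.6 and 44.4 CPM with SP-2509, ranges that overlap, and did not pass the test (0.05 ± 0.07).

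HLA-B, the least abundant heavy chain of the 3 in every group, passed the test with SP-2509 in A673 and in none of the knockout lines. It stood at 1.04 and 1.46 CPM with DMSO, from 48 and 57 counts, and at 2.12 and 2.69 CPM with SP-2509, from 103 and 141 counts (0.96 ± 0.18, edgeR adjusted p 8.99e-05). In the knockout lines the SP-2509 libraries were also above the DMSO libraries, but the log2 fold changes of 0.19 ± 0.15 (MRPL45), 0.38 ± 0.19 (CYC1) and 0.22 ± 0.18 (UQCRFS1) did not pass the test. Whether the lines differ in this response is tested further on.

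The ratio of HLA-E to HLA-C transcript rose with SP-2509 in every line. Per length, the ratio of HLA-E to HLA-C was 0.40 and 0.43 in A673 with DMSO and 1.90 and 1.69 with SP-2509. In UQCRFS1-KO cells it went from 0.37 and 0.35 to 1.98 and 2.00, and in CYC1-KO cells from 0.40 and 0.41 to 0.73 and 0.75. MRPL45-KO cells already had more HLA-E than HLA-C with DMSO, with ratios of 1.21 and 1.26, and reached 1.79 and 1.82. HLA-E thus became the more abundant of these transcripts per length in A673 and UQCRFS1-KO cells, and stayed below HLA-C in CYC1-KO cells.

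**Figure D2:**
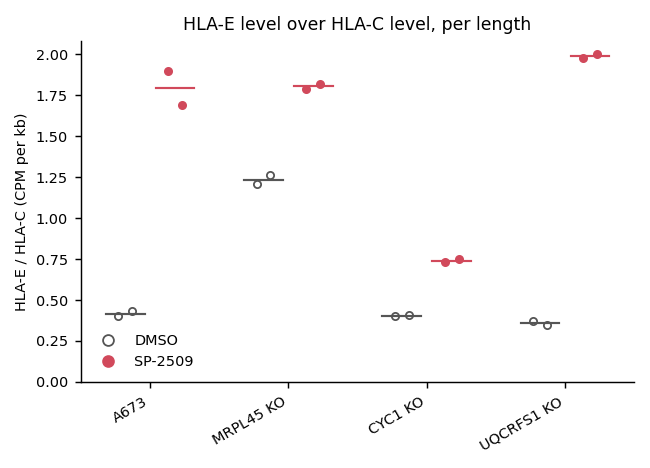
Ratio of HLA-E to HLA-C in each library, both as CPM per kilobase of principal transcript, on an axis from 0. Open grey points are DMSO libraries, filled red points SP-2509 libraries, and lines are group means of 2 libraries. All SP-2509 libraries lie above the DMSO libraries of their line, and with DMSO MRPL45-KO cells stand at 1.21 and 1.26 against 0.35 to 0.43 in the others.

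B2M, the light chain of every class I molecule, rose in all 4 lines by less than HLA-E. In A673 it stood at 668 and 575 CPM with DMSO and at 736 and 757 CPM with SP-2509 (0.27 ± 0.07, edgeR adjusted p 0.0025). That call was lost with upper-quartile factors (0.08), with a stricter filter on low counts (0.12), without A673 DMSO replicate 2 (0.13) and without A673 SP-2509 replicate 2 (0.21). In MRPL45-KO cells it went from 754 and 820.0 to 924 and 978 CPM (0.27 ± 0.07, edgeR adjusted p 0.00797), a call lost without DMSO replicate 1 (0.22) or SP-2509 replicate 2 (0.24) of that line. The rises in the other knockout lines were larger and kept their calls under the alternatives run. B2M went from 808 and 719 to 1066 and 999.5 CPM in CYC1-KO cells (0.44 ± 0.07, edgeR adjusted p 2.97e-05) and from 714 and 719 to 1135 and 1093 CPM in UQCRFS1-KO cells (0.64 ± 0.07, edgeR adjusted p 3.37e-08). B2M lies on chromosome 15, apart from the other 8 genes, which all lie on chromosome 6.

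The transporter genes fell or were not called. TAP2 stood at 10.6 and 11.2 CPM in A673 with DMSO and at 6.65 and 7.11 CPM with SP-2509 (-0.66 ± 0.10, edgeR adjusted p 5.94e-06). In UQCRFS1-KO cells it went from 5.43 and 4.91 to 2.57 and 2.25 CPM (-1.10 ± 0.12, edgeR adjusted p 1.93e-08). Neither line had overlapping libraries. In CYC1-KO cells TAP2 went from 17.4 and 19.5 to 14.8 and 16.1 CPM (-0.26 ± 0.10, edgeR adjusted p 0.0432). This last call was lost with DESeq2 and without any of CYC1-KO DMSO replicate 2 (-0.18), SP-2509 replicate 1 (-0.19) or SP-2509 replicate 2 (-0.35).

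TAP1 fell in UQCRFS1-KO cells, from 1.2 and 1.38 CPM with DMSO to 0.41 and 0.40 CPM with SP-2509 (-1.67 ± 0.23, edgeR adjusted p 7.49e-07). These are the lowest TAP1 values of all 8 groups. In A673 it stood at 1.86 and 2.46 CPM with DMSO and at 1.65 and 2.04 CPM with SP-2509, which overlap. The log2 fold changes of TAP1 in A673, MRPL45-KO and CYC1-KO cells, -0.22 ± 0.18, -0.32 ± 0.17 and -0.31 ± 0.15, did not pass the test, though that of CYC1-KO cells did with only the compared libraries in the fit (-0.33).

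TAPBP, whose product tapasin bridges the transporter and the heavy chain, moved little. In A673 it stood at 78.3 and 89.8 CPM with DMSO and at 103 and 94.0 CPM with SP-2509 (0.23 ± 0.06, edgeR adjusted p 0.00391). This call was lost with upper-quartile factors (0.05), with the stricter filter (0.09), with only the A673 libraries in the fit (0.17), without A673 DMSO replicate 1 (0.09) and without A673 SP-2509 replicate 1 (0.12). In UQCRFS1-KO cells TAPBP stood at 62.0 and 66.1 CPM with DMSO and at 58.5 and 57.0 CPM with SP-2509 (-0.15 ± 0.07, edgeR adjusted p 0.057). The same difference passed the test with the replicate number as a block (-0.15, edgeR adjusted p 0.0447), with upper-quartile factors (-0.29), with the stricter filter (-0.25), with only the compared libraries (-0.20) and without UQCRFS1-KO DMSO replicate 1 (-0.19). Its edgeR adjusted p ranged from 0.000313 to 0.0449 over these 5.

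The immunoproteasome genes were low, and neither was called for SP-2509 in A673 or a derivative. PSMB8 stood at 1.47 and 2.10 CPM in A673 with DMSO and at 1.73 and 2.06 CPM with SP-2509 (0.10 ± 0.23, edgeR adjusted p 0.744). PSMB9 had 6 and 2 counts in the DMSO libraries of A673 and 3 and 9 counts in its SP-2509 libraries (0.33 ± 0.70, edgeR adjusted p 0.709). At such counts a change of PSMB9 was not detectable unless large. In UQCRFS1-KO cells PSMB9 had 0 and 0 counts with DMSO and 0 and 2 counts with SP-2509, so no fold is given.

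**Figure D3:**
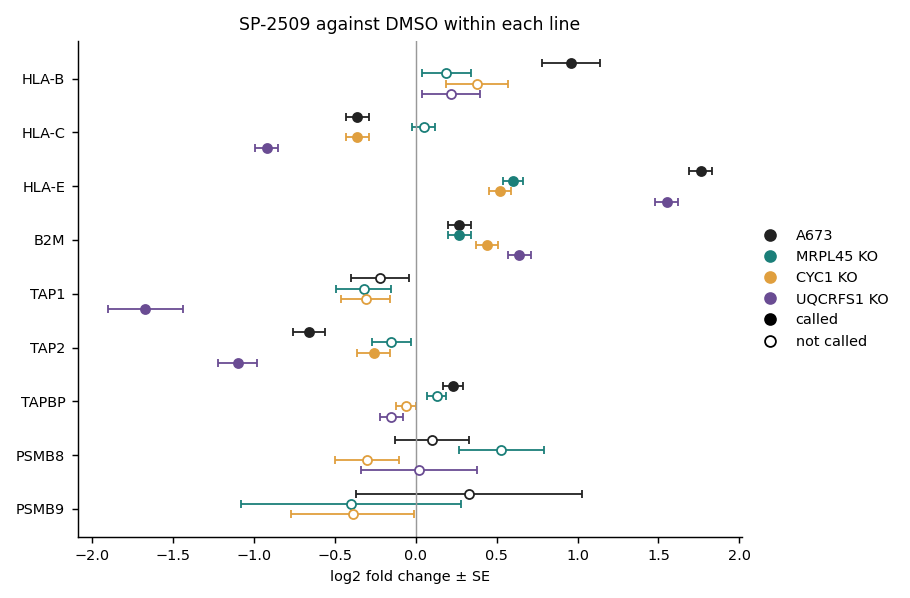
Log2 fold change of each class I gene with SP-2509 against DMSO in the 4 lines, with the standard error of the edgeR fit as bars (2 libraries per group). Filled points passed the test and open points did not, and PSMB9 in UQCRFS1-KO cells is left out because its DMSO libraries held 0 counts. HLA-E and B2M lie to the right of 0 in every line, and HLA-C and TAP2 to the left in 3 lines with a call.

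The knockout lines were next compared with A673 under DMSO. The 3 lines gave 3 different class I profiles, with 5 genes higher and 3 lower in MRPL45-KO cells, 8 higher and none lower in CYC1-KO cells, and 2 higher and 5 lower in UQCRFS1-KO cells. Of all genes tested, 57.8% were called in the first of these comparisons (28.9% higher, 29% lower), 37.6% in the second (21.4% and 16.2%) and 30.8% in the third (15.8% and 15%). B2M was called higher in all 3. Each comparison uses the same A673 libraries. The median log2 fold changes over the 9 genes were 0.45, 0.83 and -0.39, against 0.01 over all genes tested in each comparison.

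In MRPL45-KO cells the heavy chains HLA-B and HLA-E and the chaperone TAPBP stood out. HLA-B stood at 8.35 and 8.09 CPM, from 435 and 245 counts, against 1.04 and 1.46 CPM in A673, which is 6.62-fold higher (2.73 ± 0.18, edgeR adjusted p 1.67e-12). All 4 libraries of that line were above the other 12, whose highest value was 2.69 CPM. HLA-E stood at 85.6 and 98.0 CPM against 33.2 and 36.01 CPM in A673 (1.41 ± 0.07, edgeR adjusted p 7.06e-15). TAPBP stood at 173 and 173.3 CPM against 78.3 and 89.8 CPM (1.04 ± 0.06, edgeR adjusted p 9.05e-13). B2M was also higher (0.34 ± 0.07, edgeR adjusted p 0.000206). TAP2 went against these genes and was lower, at 5.39 and 4.98 CPM against 10.6 and 11.2 CPM (-1.06 ± 0.11, edgeR adjusted p 6.52e-09). The calls of HLA-C (-0.17 ± 0.07), TAP1 (0.45 ± 0.17) and PSMB8 (-0.67 ± 0.25) in this line were lost with DESeq2 and with only the compared libraries in the fit. That of HLA-C was also lost with RLE factors (-0.15), with upper-quartile factors (-0.09) and without A673 DMSO replicate 2 (-0.18), and that of TAP1 with no filter on low counts (0.38). Without A673 DMSO replicate 1, TAP1 was at 0.22, and without A673 DMSO replicate 2, PSMB8 was at -0.43, neither called. Without MRPL45-KO DMSO replicate 1, HLA-C was at -0.11 and PSMB8 at -0.40, neither called, and without replicate 2 TAP1 was at 0.32 and not called.

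In CYC1-KO cells every class I gene but HLA-B was higher than in A673. TAP1 stood at 5.70 and 5.47 CPM against 1.86 and 2.46 CPM (1.38 ± 0.17, edgeR adjusted p 3.03e-07), and TAP2 at 17.4 and 19.5 CPM against 10.6 and 11.2 CPM (0.76 ± 0.10, edgeR adjusted p 1.05e-06). PSMB8 stood at 5.25 and 4.73 CPM against 1.47 and 2.10 CPM (1.49 ± 0.22, edgeR adjusted p 5e-06). PSMB9 had 37 and 39 counts against 6 and 2 (3.13 ± 0.53, edgeR adjusted p 4.2e-05). The line thus had the most transcript of both transporter subunits and of both immunoproteasome subunits among the 4 lines. HLA-C stood at 92.0 and 87.9 CPM against 48.7 and 49.95 CPM (0.87 ± 0.07, edgeR adjusted p 1.42e-10) and HLA-E at 62.2 and 60.8 CPM against 33.2 and 36.01 CPM (0.83 ± 0.07, edgeR adjusted p 3.99e-10). TAPBP (0.45 ± 0.06) and B2M (0.30 ± 0.07) were higher by less, and the call of B2M was lost without A673 DMSO replicate 2 (0.19) or CYC1-KO DMSO replicate 1 (0.20). HLA-B stood at 1.45 and 1.24 CPM, inside the range of A673, and did not pass the test (0.12 ± 0.20).

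The UQCRFS1 knockout, which like that of CYC1 targets a complex III subunit, gave the opposite direction for 5 of these genes. PSMB8 stood at 0.30 and 0.40 CPM against 1.47 and 2.10 CPM in A673 (-2.34 ± 0.29, edgeR adjusted p 7.56e-07). PSMB9 was called lower, with 0 counts in both libraries against 8 counts in A673. The 0 counts allow up to 0.0298 CPM (3 counts over the group, counting error only). With 3 counts in place of 0 the level was 3.14-fold lower, a value that leaves out the counting error of the 8 counts. That call was lost without A673 DMSO replicate 1, which holds 6 of the 8 counts, or without either UQCRFS1-KO DMSO library. TAP2 stood at 5.43 and 4.91 CPM against 10.6 and 11.2 CPM (-1.07 ± 0.11, edgeR adjusted p 3.36e-08). TAP1 was lower at -0.73 ± 0.18 (edgeR adjusted p 0.00329), a call lost without A673 DMSO replicate 2 (-0.52). TAPBP was lower too, at 62.0 and 66.1 CPM against 78.3 and 89.8 CPM (-0.39 ± 0.07, edgeR adjusted p 4.73e-05). HLA-C was higher (0.30 ± 0.07, edgeR adjusted p 0.00115), not called without UQCRFS1-KO DMSO replicate 2 (0.21). B2M was higher at 0.21 ± 0.07 (edgeR adjusted p 0.0296), with the call lost without A673 DMSO replicate 2 (0.10), without UQCRFS1-KO DMSO replicate 1 (0.22) or 2 (0.19), and with only the compared libraries (0.20). HLA-E (0.10 ± 0.07) and HLA-B (0.23 ± 0.19) did not pass the test.

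**Figure D4:**
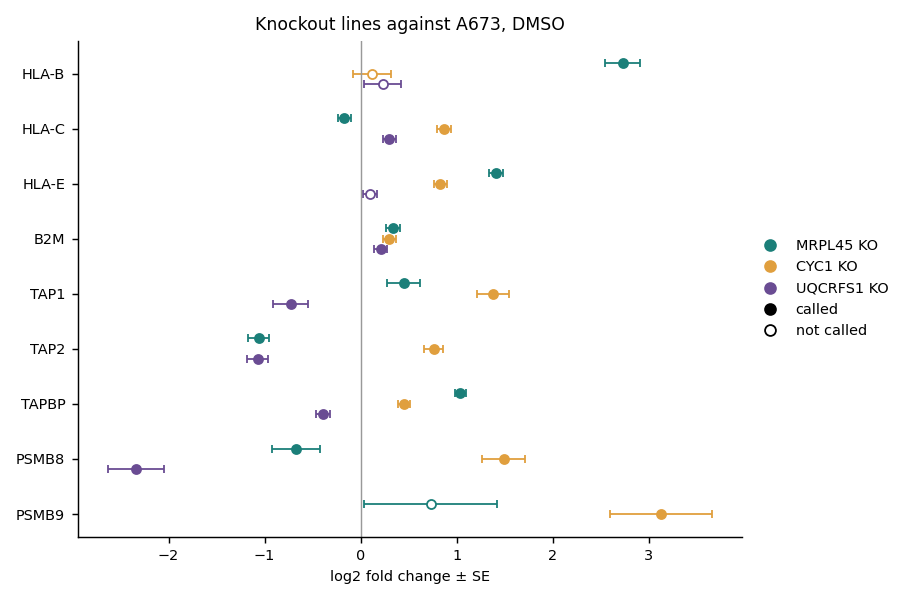
Log2 fold change of each class I gene in the 3 knockout lines against A673, all with DMSO, with the standard error of the edgeR fit as bars (2 libraries per group). Filled points passed the test and open points did not, and PSMB9 in UQCRFS1-KO cells is left out because it held 0 counts there. For TAP1, TAP2, TAPBP and PSMB8 CYC1-KO cells lie to the right of 0 and UQCRFS1-KO cells to the left.

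Whether a knockout line answered SP-2509 differently from A673 was tested as the difference of the log2 fold changes. The 3 tests share the A673 libraries. For MRPL45-KO cells 2 of the 9 genes were called higher and 2 lower, where 38.7% of all genes tested were called (14.5% higher, 24.2% lower). For CYC1-KO cells 1 was higher and 2 lower, against 33.9% of all genes (12.8% and 21%), and for UQCRFS1-KO cells 1 was higher and 3 lower, against 10.7% (3.02% and 7.68%). The counts for MRPL45-KO and CYC1-KO cells are near these backgrounds and are read no further. The HLA-E rise was smaller than in A673 in MRPL45-KO cells (difference -1.16 ± 0.09, edgeR adjusted p 4.6e-10) and in CYC1-KO cells (-1.24 ± 0.09, edgeR adjusted p 2.8e-10). In UQCRFS1-KO cells the HLA-E response differed by -0.21 ± 0.09 and did not pass the test. The HLA-C response was higher than in A673 in MRPL45-KO cells (difference 0.41 ± 0.10, edgeR adjusted p 0.00121) and lower in UQCRFS1-KO cells (-0.56 ± 0.09, edgeR adjusted p 0.000292). In CYC1-KO cells it differed from A673 by 0.00 ± 0.09 and did not pass the test. Among the genes called, TAP1 gave the largest difference in UQCRFS1-KO cells (-1.45 ± 0.29, edgeR adjusted p 0.00139). There the B2M response was larger (0.37 ± 0.10, edgeR adjusted p 0.0161) and that of TAPBP lower (-0.38 ± 0.09, edgeR adjusted p 0.00771). Both calls depend on single libraries: B2M was not called without A673 DMSO replicate 1 (0.27), A673 SP-2509 replicate 1 (0.36), UQCRFS1-KO DMSO replicate 1 (0.36) or UQCRFS1-KO SP-2509 replicate 1 (0.34), and TAPBP not without A673 DMSO replicate 1 (-0.27), A673 SP-2509 replicate 1 (-0.31) or UQCRFS1-KO DMSO replicate 2 (-0.30). For HLA-B the difference was -0.77 ± 0.24 in MRPL45-KO cells (edgeR adjusted p 0.0121), not called without A673 DMSO replicate 1 (-0.48), A673 SP-2509 replicate 2 (-0.54) or MRPL45-KO SP-2509 replicate 2 (-0.70). In CYC1-KO and UQCRFS1-KO cells it was -0.58 ± 0.26 and -0.73 ± 0.26, neither called, but both were called without A673 DMSO replicate 2 (-0.82 and -0.99). The B2M difference of CYC1-KO cells was likewise called only with upper-quartile factors (0.32), with the stricter filter (0.28) and without A673 DMSO replicate 2 (0.28).

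Ordered by group mean, HLA-E ran from A673 with DMSO (34.6 CPM) through the DMSO groups of UQCRFS1-KO (37.0) and CYC1-KO (61.5) cells, the SP-2509 group of CYC1-KO cells (88.1) and the DMSO group of MRPL45-KO cells (91.8), to the SP-2509 groups of UQCRFS1-KO cells (108), A673 (117) and MRPL45-KO cells (139). In this order A673 and UQCRFS1-KO cells with DMSO overlapped, as did CYC1-KO cells with SP-2509 and MRPL45-KO cells with DMSO. HLA-C ran from 32.1 CPM in UQCRFS1-KO cells with SP-2509 to 90.0 CPM in CYC1-KO cells with DMSO, and of neighbouring groups only those of MRPL45-KO cells overlapped. B2M ran from 621 CPM in A673 with DMSO to 1114 CPM in UQCRFS1-KO cells with SP-2509, with overlaps among the middle groups of A673 with SP-2509 (747) and CYC1-KO (763) and MRPL45-KO (787) cells with DMSO. TAPBP ran from 57.7 CPM in UQCRFS1-KO cells with SP-2509 to 189 CPM in MRPL45-KO cells with SP-2509, and no neighbouring groups overlapped. TAP1 and TAP2 both ran from UQCRFS1-KO cells with SP-2509 (0.40 and 2.41 CPM) to CYC1-KO cells with DMSO (5.59 and 18.5 CPM).

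Across the 16 libraries the 9 genes did not form 1 pattern. On log2 CPM, PSMB8 was most like PSMB9 (Pearson r 0.88, Spearman rho 0.81), TAP1 most like PSMB8 (r 0.87, rho 0.81) and TAP2 most like PSMB8 (r 0.86, rho 0.80). HLA-C was most like TAP2 (r 0.82, rho 0.74), HLA-B most like TAPBP (r 0.81, rho 0.56), and HLA-E most like B2M (r 0.69, rho 0.67). HLA-C and HLA-E ran against each other (r -0.44, rho -0.57). These values describe 16 libraries in 8 groups, which share lines and treatments, and PSMB9 rests on few counts. Among 10592 other genes whose mean CPM reached 5, those most like the mean scaled profile of the 9 genes were KRT8 (r 0.982), ASAP1 (0.981), TOX3 (0.977), LHFPL2 (0.976) and EMCN (0.974). As the highest values of that search they are a description only. They refer to the mean and not to each of the 9 genes.

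Regulators of class I transcription were looked at next, from a list of 19 genes. In A673 SP-2509 raised 10 and lowered 4 of them, where 31.6% of all genes tested rose and 26.4% fell. IRF1, an activator induced by interferon gamma, stood at 3.31 and 3.40 CPM with DMSO and at 7.84 and 7.30 CPM with SP-2509 (1.17 ± 0.13, edgeR adjusted p 1.81e-08), and IRF2, which competes with IRF1 for its element, fell by 1.28 ± 0.08 on the log2 scale. NFYA, a subunit of the CCAAT-binding factor, rose (1.07 ± 0.06) and RFXAP, a subunit of the RFX complex, fell (-0.97 ± 0.10). RFX5, another subunit of that complex, fell too (-0.31 ± 0.07). NLRC5, the class I transactivator, stood at 0.58 and 0.72 CPM with DMSO and at 0.74 and 0.82 CPM with SP-2509 and did not pass the test (0.27 ± 0.24).

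The knockout lines differed in NLRC5. It stood at 5.76 and 6.37 CPM in MRPL45-KO cells with DMSO, against 0.58 and 0.72 CPM in A673 (3.22 ± 0.21, edgeR adjusted p 1.73e-12), at 1.27 and 1.04 CPM in CYC1-KO cells (0.83 ± 0.23, edgeR adjusted p 0.00573), and at 0.26 and 0.30 CPM in UQCRFS1-KO cells (-1.21 ± 0.28, edgeR adjusted p 0.00189). Of the 19 regulators, 5 were higher and 9 lower than in A673 in MRPL45-KO cells, 10 and 4 in CYC1-KO cells, and 2 and 6 in UQCRFS1-KO cells. The shares of all genes tested that were higher and lower were 28.9% and 29%, 21.4% and 16.2%, and 15.8% and 15% in these comparisons. In MRPL45-KO cells IRF1 was higher (1.16 ± 0.13), and IRF2 (-1.18 ± 0.09) and RFX5 (-0.85 ± 0.07) lower. A list of 9 interferon receptor and signalling genes also held inhibitors of that signalling (SOCS genes), so its counts give no direction of signalling. Of these 9 genes, 8 were higher than in A673 in MRPL45-KO cells (28.9% of all genes tested) and 8 in CYC1-KO cells (21.4%), none being lower. UQCRFS1-KO cells had 3 of them higher and 1 lower, the kinase gene JAK1 (-0.52 ± 0.06), which was higher in the MRPL45 (0.81 ± 0.06) and CYC1 (0.54 ± 0.06) knockout lines.

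Genes that act beside the 9 in making and trimming peptides gave a mixed picture. Of 13 genes of the standard proteasome core, SP-2509 raised 1 and lowered 9 in A673 and likewise in UQCRFS1-KO cells, where 26.4% and 25.1% of all genes tested fell. It raised none and lowered 1 in MRPL45-KO cells, and raised 1 and lowered 1 in CYC1-KO cells, where 8.09% and 14.7% of all genes fell. The one that rose in A673 was PSMB7 (0.33 ± 0.06), while PSMB5 fell (-0.33 ± 0.06) and PSMB6 did not pass the test (-0.11 ± 0.06). PSMB10, the third immunoproteasome subunit, stood at 1.08 and 0.79 CPM with DMSO and at 0.66 and 0.55 CPM with SP-2509 in A673 and did not pass the test (-0.64 ± 0.29). The proteasome activator genes PSME1 (-0.77 ± 0.07) and PSME2 (-0.62 ± 0.07), which form the interferon-induced cap, fell in A673, and PSME3, which forms a nuclear cap, rose (0.90 ± 0.06). ERAP1, which trims peptides in the endoplasmic reticulum, was not called for SP-2509 in any of the lines, at 0.01 ± 0.06 in A673 (-0.17 and called with upper-quartile factors). Compared under DMSO, it was higher than in A673 in the MRPL45 (0.39 ± 0.06) and CYC1 (0.37 ± 0.06) knockout lines and lower in UQCRFS1-KO cells (-0.96 ± 0.07). Of 8 loading and trimming genes, SP-2509 raised 3 and lowered 4 in A673, where 58% of all genes tested changed, with CALR, the chaperone calreticulin, at -0.15 ± 0.06.

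Of the 9 genes, 8 lie in the MHC region of chromosome 6. So 28 other genes of that region, chosen as not belonging to the class I machinery described above, were set beside them. The class I medians given here are over all 9 genes and so include B2M, which lies on chromosome 15. With SP-2509 in A673, 15 of these rose and 8 fell (31.6% and 26.4% of all genes tested), with a median log2 fold change of 0.24, against 0.23 for the 9 class I genes. Under DMSO, 8 of the 28 were higher and 2 lower in CYC1-KO cells than in A673 (21.4% and 16.2% of all genes; median 0.10), where the class I median was 0.83. In UQCRFS1-KO cells 4 were higher and 2 lower (15.8% and 15% of all genes; median -0.02, class I median -0.39), and in MRPL45-KO cells 8 were higher and 5 lower (28.9% and 29%; median 0.05, class I median 0.45).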

How the data were processed

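Poly(A) RNA was sequenced from 16 libraries. The authors deposited raw counts per gene as whole numbers, per the file headers, in 10 tables of 39249 rows, and a library found in several tables had the same counts in each. The submitters' processing notes name the build hg19 and, with no roles, STAR 2.5.2b, Trim Galore, DESeq2, MultiQC and FastQC. For the counter, its strand setting and the annotation nothing is given in the sources used here. Other deposited columns were not used here. Rows without a symbol (2.405% to 8.588% of a library's counts) carry identifiers and stayed in the totals and tests.

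The test was that of edgeR 4.0.16 (R 4.3.3) with all 16 libraries, 1 mean per group, TMM factors, filterByExpr, robust quasi-likelihood F-test, two-sided, Benjamini-Hochberg adjustment over 21633 genes, threshold 0.05, 8 residual degrees of freedom. CPM uses TMM-scaled totals, and log2 CPM a prior count of 2. Each standard error is the size of the log2 fold change over the square root of F. Alternatives were RLE and upper-quartile factors, no filter, a stricter filter, DESeq2 1.42.0, only the compared libraries, a replicate block, summed rows of a symbol, and each library left out. Same-numbered libraries deviated together in all 28 pairs of groups (correlation 0.13 to 0.65), so the replicate numbers of the labels pair the libraries; block values stand beside the results they change. Replicates differed by more than sampling noise. Transcript lengths and shared windows are from GENCODE 29, on another build than hg19, so no gene coordinates are given; promoters are from RefSeq (GRCh38.p14).

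The 9 genes and the gene lists were chosen with earlier results of these data known. Genes named beside the 9 are a fixed set, the called list genes of largest change reaching 5 CPM (up to 2 per direction, list and comparison), and the 5 genes most like the class I profile; ITGAM, PTPRC and JAK1 in UQCRFS1-KO cells were named after their values were seen. Some called genes that this rule would name, among the other heavy chains and the regulators, are not reported here.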

Additional observations from a re-analysis of the deposited data

Results flagged for a closer look

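The response of 11 gene and line combinations to SP-2509 differed from that of A673 by the edgeR test of the difference itself. In MRPL45-KO cells these were HLA-B (-0.77 ± 0.24), HLA-C (0.41 ± 0.10), HLA-E (-1.16 ± 0.09) and TAP2 (0.52 ± 0.16). The TAP2 difference was not called without MRPL45-KO SP-2509 replicate 2 (0.48). In CYC1-KO cells they were HLA-E (-1.24 ± 0.09), TAP2 (0.40 ± 0.14) and TAPBP (-0.29 ± 0.09). The TAP2 difference there was lost without A673 DMSO replicate 2 (0.37), A673 SP-2509 replicate 1 (0.38), CYC1-KO DMSO replicate 1 (0.33) or CYC1-KO SP-2509 replicate 2 (0.35), and also with no filter on low counts (0.38) and with DESeq2 (0.36). That of TAPBP was lost without A673 DMSO replicate 1 (-0.17), A673 SP-2509 replicate 1 (-0.21), or any 1 of the 4 CYC1 knockout libraries (-0.26 to -0.30), and also with upper-quartile factors (-0.14) and with the stricter filter on low counts (-0.19). In UQCRFS1-KO cells they were HLA-C (-0.56 ± 0.09), B2M (0.37 ± 0.10), TAP1 (-1.45 ± 0.29) and TAPBP (-0.38 ± 0.09). The HLA-E differences of MRPL45-KO and CYC1-KO cells kept their calls under every alternative run. So did the HLA-C difference of MRPL45-KO cells and the HLA-C and TAP1 differences of UQCRFS1-KO cells.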

How the results depend on the processing

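Under alternatives other than leaving out a library, 674 of 701 values of the 9 genes had the same call, and 418 of 468 when 1 library was left out; none changed sign while called. The count of class I genes called in MRPL45-KO cells against A673 was 8, and 5 with DESeq2 and with only the compared libraries. Without 1 library the counts called with SP-2509 were 5 in A673 (6 with all libraries), 1 to 2 in MRPL45-KO, 3 to 4 in CYC1-KO and 5 to 6 in UQCRFS1-KO cells. Against A673 they were 6 to 7, 7 to 8 and 4 to 6 in these lines (7 in the last with all libraries), and for the response differences 2 to 4, 1 to 4 and 2 to 5. The replicate block changed 1 of 90 values, TAPBP with SP-2509 in UQCRFS1-KO cells, and no other call. Upper-quartile factors moved the median of all genes by -0.182 (A673) and -0.136 (UQCRFS1-KO cells) with SP-2509, and by 0.153 and 0.152 for the response differences of MRPL45-KO and CYC1-KO cells. The share of higher calls among all genes then went from 54.4% to 41.6%, from 54.1% to 43.6%, from 37.5% to 52.9% and from 37.8% to 57%. It went from 56.9% to 43.4% for CYC1-KO cells against A673, and from 28.3% to 40.2% for the UQCRFS1 response difference. ERAP1 with SP-2509 in A673 was at 0.01 and at -0.17 with these factors, where the cause was not tested. PSMB9, with 0 to 39 counts per library, limits what its tests can show.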

Other observations

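Surface ligands that NK cells read beside HLA-E were counted from a list of 9 tested genes. With SP-2509 in A673, 6 rose and 1 fell, where 31.6% and 26.4% of all genes tested did. ULBP2, a ligand of the activating receptor NKG2D, rose by 2.51 ± 0.16 on the log2 scale and MICB, another NKG2D ligand, by 1.35 ± 0.08, while MICA fell (-0.39 ± 0.09). In MRPL45-KO cells with DMSO, 8 of the 9 were higher than in A673 and 1 lower, with ULBP2 at 2.74 ± 0.16, MICB at 1.38 ± 0.08 and MICA at -0.37 ± 0.09, where 28.9% and 29% of all genes were. CYC1-KO cells had 2 higher and 3 lower, with ULBP1 at -2.45 ± 0.15 (21.4% and 16.2% of all genes), and UQCRFS1-KO cells 3 higher and 2 lower (15.8% and 15%).

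Among the class I-like heavy chains, MR1, which presents vitamin B metabolites to MAIT cells, rose with SP-2509 in A673 (2.14 ± 0.13) and was higher in MRPL45-KO cells than in A673 with DMSO (2.99 ± 0.13). HFE, which regulates iron uptake, fell with SP-2509 in A673 (-2.76 ± 0.16) and was lower in the UQCRFS1 (-1.35 ± 0.14) and MRPL45 (-0.50 ± 0.14) knockout lines. Of 6 tested MHC class II genes, none rose and 2 fell with SP-2509 in A673 (31.6% and 26.4% of all genes tested). All 6 were low: their means in A673 with DMSO ran from 0.1 to 1.05 CPM. The highest mean of any group was 4.83 CPM, in CYC1-KO cells with DMSO. Most of the class II calls and medians here therefore rest on few counts. Compared with A673 under DMSO, none were higher and 3 lower in MRPL45-KO cells (28.9% and 29%; median log2 fold change -1.02), 3 higher and none lower in CYC1-KO cells (21.4% and 16.2%; median 0.98), and 1 higher and none lower in UQCRFS1-KO cells (15.8% and 15%; median -0.09).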
